A study of Mus musculus with 3 samples.

Results

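The H19 and Igf2 domain of mouse chromosome 7 was described here by its CpGs, each with the number of times bisulfite sequencing covered it (observations) and read it as methylated. The members were chosen by position on mm9 and by no measured value. They are the 1542 CpGs of chr7:149645000-149790000, of 21342492 CpGs on the autosomes and sex chromosomes, and 63 of them lie in the imprinting control region at chr7:149766168-149768424. H19 (chr7:149761434-149764048, minus strand) starts 2120 bp from the control region. Igf2 (chr7:149836673-149852721, minus strand) lies 46673 bp beyond the end of that interval, measured to its nearer end, where its transcription stops. A further 920 CpGs, from chr7:149790001 to chr7:149857721, were therefore added as an extension to Igf2 and are counted apart, which gives 2462 CpGs in all.

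The study asked whether molecules bound by CTCF differ in methylation from the whole population. CTCF ChIP-BisSeq reads methylation in DNA immunoprecipitated with an anti-CTCF antibody. It covered 2 replicates of wild type ES cells (Mixed 129-C57Bl/6), each from DNA pooled over 5 ChIP experiments. WG-BisSeq, the same readout on all genomic DNA, was done in 1 library of REST knockout ES cells of Black Agouti 129 background. REST is a repressor of neuronal genes, and both kinds of cell were grown on feeder cells or on gelatine, and the share of feeder DNA is not given. Genotype, strain and assay differ together between the 2 groups and cannot be told apart, and each test below compares libraries. The study itself compared ChIP-BisSeq with published WG-BisSeq data of ES cells, which are not among the libraries used here. At sites where CTCF is known to bind 1 allele, it reports finding only unmethylated alleles in ChIP-BisSeq. The sources do not say that the replicates came from separate cultures, so a difference beyond both may still be technical.

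H19 is a noncoding RNA expressed from the maternal chromosome, and Igf2, a growth factor of the fetus, is expressed from the paternal one. The control region between them is methylated on the paternal chromosome. On the maternal chromosome it is unmethylated and bound by CTCF, a zinc finger protein that there insulates Igf2 from enhancers lying beyond H19.

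The CTCF motif of the control region, 14 bases that read CCGCG, any base, GG, any base and GGCAG, was searched on both strands. It had 9 exact matches on chromosome 7, 3 of them in the domain, and these 3 were all in the control region. A 4th match there has 1 mismatch. A match was present in 0.00317% of the 500 bp windows of chromosome 7. All 4 lie on the minus strand, the strand of H19 and Igf2, and are shown with 23 bases on each side. The reason is that ChIP-BisSeq methylation, summed over the 10 CpGs of the 4 matches, was below the knockout level. The difference was not tested for each match, and site 4 had few ChIP observations. Capitals mark the match.
Site 1, chr7:149766191-149766250: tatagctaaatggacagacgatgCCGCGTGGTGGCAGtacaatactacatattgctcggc
Site 2, chr7:149766646-149766705: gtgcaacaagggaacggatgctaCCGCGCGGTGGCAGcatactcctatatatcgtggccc
Site 3, chr7:149767672-149767731: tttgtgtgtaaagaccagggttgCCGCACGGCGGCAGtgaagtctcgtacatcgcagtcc
Site 4, chr7:149767916-149767975: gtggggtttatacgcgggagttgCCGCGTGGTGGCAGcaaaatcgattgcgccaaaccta
Sites 1 and 4 hold 2 CpGs in the match, and sites 2 and 3 hold 3. Site 3 is the one with a mismatch.

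The libraries differed widely in depth. Replicate 1 of ChIP-BisSeq had 13411280 observations, replicate 2 had 25262179 and the REST knockout library had 273375318. In the interval around H19 they listed 277, 662 and 1501 of the 1542 CpGs, and in the extension 195, 434 and 890 of the 920. In the REST knockout library, exons 2 and 3 of Rest held 3 and 12 observations over 35 and 41 CpGs, against 1160 over the 39 CpGs of exon 1 and 1192 in exon 6. In wild type cells exons 2 and 3 held 0 and 28 observations in replicate 1 and 119 and 173 in replicate 2, so the knockout library was nearly empty where replicate 2 was not. Intervals below are exact (Clopper-Pearson) at 95% and cover counting error only, since PCR copies and neighbouring CpGs of 1 read are not independent observations.

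In the control region, the CTCF-bound DNA of wild type cells was mostly unmethylated and the REST knockout library was methylated at an intermediate level. Replicate 1 had 30 methylated of 254 observations (11.8%) and replicate 2 had 80 of 427 (18.7%), a mean of 15.3% ± 4.90 (SD, n = 2). The REST knockout library had 433 of 822 (52.7%, interval 49.2 to 56.1). Both replicates were far below the knockout interval. Coverage per CpG, relative to the mean of the library, was 6.51 and 6.11 times in the ChIP replicates and 1.66 times in the knockout library. Averaged over the 26 CpGs with at least 10 observations in the pooled replicates, methylation was 15.1%, and over 43 such CpGs in the knockout library it was 52.4%. The ChIP value depended on the CpGs admitted, at 7.0% with a minimum of 20 observations and 0% over the 7 CpGs left without replicate 2.

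Taken over the whole region, single CpGs differed from each other by little more than counting error in the knockout library. Of the 43 CpGs, 41 lay between 20 and 80%, with a lowest value of 20.0% and a highest of 90.0%. Within 100 bp of site 1 the knockout level was 41.9% (interval 34.8 to 49.2). Site 2 stood higher, at 70.4% of 54 observations (interval 56.4 to 82.0), with sites 3 and 4 between them at 54.4 and 56.5%. These contrasts between sites were not tested. A chi-square over all 63 CpGs, divided by its degrees of freedom, was 1.19, close to the 1 that counting error alone would give. In the ChIP replicates it was 4.83 and 4.0, more than counting error alone would give. The statistic treats observations as independent, and copies of 1 read raise it. Median coverage of the observed CpGs was only 4 and 5 there, so the values do not by themselves show unequal methylation along the region.

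**Figure D1:**
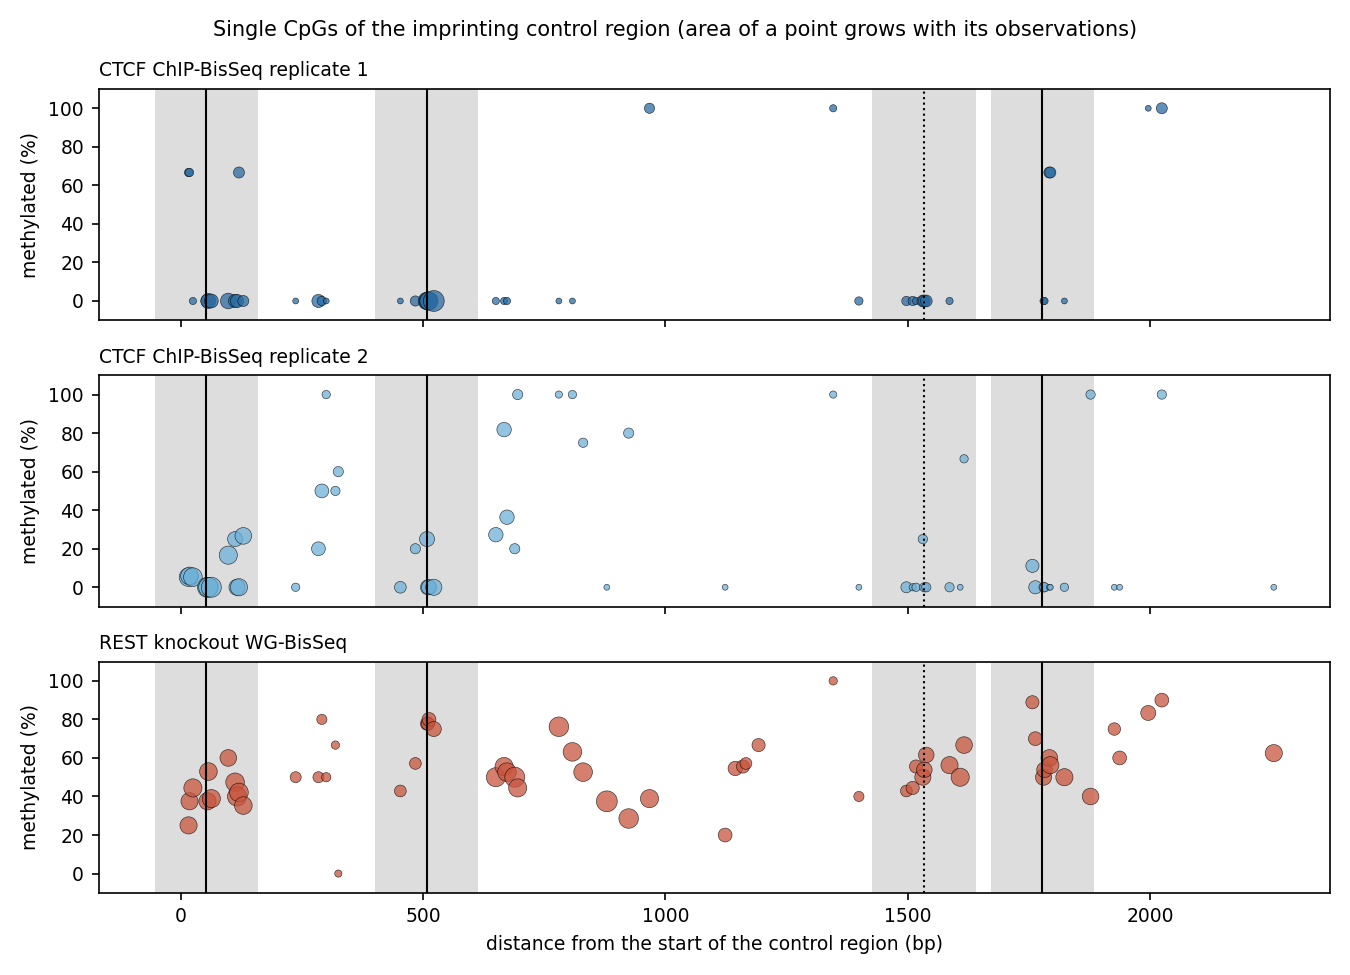
Methylation of single CpGs in percent against distance from the start of the control region in bp, 1 panel per library, with lines at the 3 exact (solid) and the 1-mismatch (dotted) motif matches and grey bands reaching 100 bp beyond them. Points of the ChIP-BisSeq replicates near the matches sit mostly at 0%, while 41 of the 43 deeper CpGs of the REST knockout library sit between 20 and 80%.

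Methylation in the ChIP replicates was lower near the motif, clearly so in replicate 2. In replicate 1 the difference was weaker and rested on 16 methylated observations near the exact matches and 14 away from them. Within 100 bp of the 3 exact matches, replicate 1 had 8.84% methylated of 181 observations, against 19.2% of 73 in the rest of the region (two-sided Fisher exact test, p = 0.0303, and 0.0455 after Benjamini-Hochberg adjustment over the 3 libraries). In replicate 2 the values were 7.53% of 292 and 43.0% of 135 (exact p = 4.3e-17, adjusted 1.3e-16). The knockout library had 50.7% of 353 near the matches and 54.2% of 469 away from them (exact p = 0.359, also after adjustment). Both replicates were thus lower near the matches, and no such difference was detected in the knockout library. With site 3 added to the matches, which was chosen after the values were seen, the contrast widened to 7.48 against 35.0% in replicate 1 and 7.74 against 52.9% in replicate 2. Relative coverage near the exact matches was 11.7 and 10.5 times the library mean in the replicates, against 3.10 and 3.20 away from them. Sites 1 and 2 carried this, at 12 and 16 times and at 22.1 and 9.32 times within 100 bp, whereas site 4 had 3.43 and 3.95 times and site 3 had 5.92 and 3.11 times. These p-values treat observations as independent, which makes them too small.

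Within the matches themselves, nearly every ChIP observation was unmethylated. At site 1, 0 of 21 observations in replicate 1, 0 of 43 in replicate 2 and 15 of 33 in the knockout library were methylated. At site 2 these were 0 of 52, 3 of 36 and 22 of 28. At site 3 they were 0 of 21, 1 of 12 and 22 of 40. Site 4 was the least covered, with 0 of 4, 0 of 8 and 14 of 27. Over the 10 CpGs of the 4 matches, replicate 1 had 0 of 98, which allows a share of up to 3.06%, replicate 2 had 4 of 99 (4.04%, interval 1.11 to 10.0) and the knockout library 73 of 128 (57.0%, interval 48.0 to 65.7). The replicates did not separate here, and the knockout library lay above both.

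The 100 bp around each match, with the match included, were less uniform. At site 1, 9.76% of 82 and 6.67% of 195 ChIP observations were methylated, against 41.9% of 191 in the knockout library. At site 3 these were 0 of 33 and 3 of 31, against 54.4% of 114. At site 4 replicate 1 had 47.1% of only 17 observations and replicate 2 had 14.3% of 35, against 56.5% of 108. Replicate 1 at site 4 thus lay near the knockout library, and the other values lay below it.

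The comparison was repeated in 500 bp windows of a fixed grid, by two-sided Fisher exact tests of each ChIP replicate against the knockout library. P-values were adjusted by Benjamini-Hochberg over the 111574 windows of the genome with at least 10 observations in each library. A call needed an adjusted p under 0.05 and a difference of 20 percentage points or more, with 1 sign, from both replicates. In the domain 25 windows could be tested, and 3 were called lower, all of them in the control region, against a background of 4.58% of windows in the genome. The 3 were all the control region windows that could be tested. Of the 22 others, 12 had a knockout level below 20%, so that a drop of 20 percentage points was not possible there, and the remaining ones were not called lower.

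In the window at chr7:149766001-149766500, which holds site 1, methylation was 16% of 125 and 13.0% of 270 ChIP observations and 42.4% of 314 in the knockout library. The differences were -26.4 percentage points (interval -34.1 to -17.2, Fisher exact test with Benjamini-Hochberg adjustment, adjusted p = 2.4e-06) and -29.4 (interval -35.9 to -22.4, adjusted p = 1.9e-13). No difference between the replicates was detected here (adjusted exact p = 0.749), and both were below the knockout library.

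In the window at chr7:149767501-149768000, which holds sites 3 and 4, methylation was 18.2% of 55 and 9.23% of 65 observations, and 56.7% of 215 in the knockout library. The differences were -38.6 and -47.5 percentage points (adjusted exact p = 8.1e-06 and 1.2e-10). This window was called although its relative coverage, 4.93 and 3.26 times the library mean, was below the 5 times used to call enrichment.

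In the window at chr7:149766501-149767000, which holds site 2, the replicates differed. Replicate 1 had 0 of 90 observations methylated, which allows up to 3.33%, and replicate 2 had 34 of 114 (29.8%), a difference with adjusted exact p = 6.6e-08. The knockout library had 59.5% of 210, so that both were lower (by 59.5 and 29.7 percentage points). Within 100 bp of site 2 both replicates were low, at 0 of 82 and 4 of 62, and they were not tested against each other there. The remainder of the window had 0 of 8 in replicate 1 and 30 of 52 (57.7%) in replicate 2, beside 55.8% of 156 in the knockout library. The difference between replicates thus rested mostly on observations away from the match, which replicate 1 hardly had.

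The other 2 windows of the control region, at chr7:149767001-149767500 and chr7:149768001-149768500, hold no match and were not tested. They had 5 of 5 and 7 of 7 observations methylated in replicate 1, 4 of 7 and 8 of 11 in replicate 2, and 41.3% of 109 and 66.2% of 71 in the knockout library. Their relative coverage was 0.789 to 1.88 times the library mean in the ChIP replicates, so there was little enrichment between and beyond the sites.

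At the level of single CpGs, 2 of 44 tested in the domain were called lower, against a background of 0.438%, and 0 were called higher (background 0.166%). At an unadjusted exact p under 0.05 in both replicates 5 CpGs were lower and 0 higher. Both called CpGs were at site 2. The CpG at chr7:149766680, inside the match, had 0 of 18 and 0 of 12 ChIP observations methylated and 8 of 10 in the knockout library. The CpG at chr7:149766690, next to the match, had 0 of 24, 0 of 14 and 9 of 12.

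**Figure D2:**
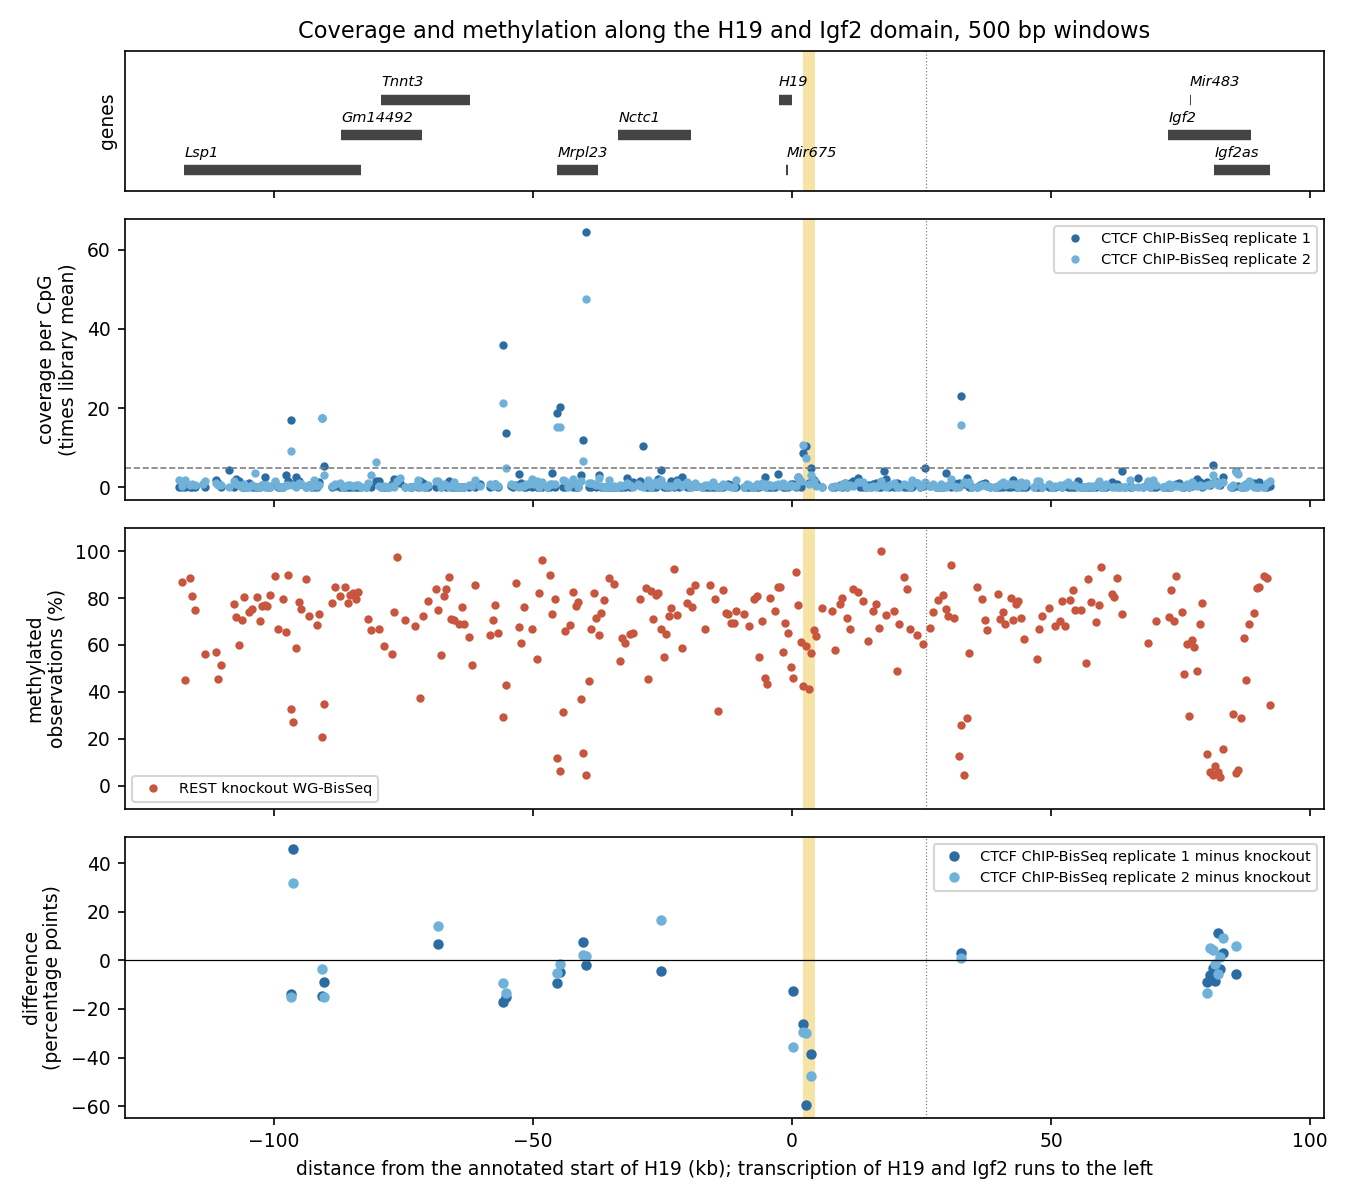
From top to bottom, genes, coverage per CpG of the ChIP-BisSeq replicates (times library mean, dashed line at 5), methylation of the REST knockout library in percent (windows with at least 20 observations and 3 CpGs) and the difference of each replicate from it in percentage points (tested windows), for 500 bp windows against distance from the H19 start in kb. The control region is shaded, the dotted line is the end of the interval around H19, and the 3 windows called lower all lie in the shaded band while the most covered window lies in Mrpl23.

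CTCF enrichment was not limited to the control region. Of 361 windows of the domain with at least 10 knockout observations, 10 had at least 5 times the library mean per CpG in both replicates, against a background of 1.42%. Of these, 2 were in the control region, at 8.77 and 10.6 times (site 1) and 10.4 and 7.34 times (site 2). At 10 times the mean 6 windows passed, with 0 in the control region, and with coverage divided by that of the knockout library 4 passed, with 1 in the control region. The other 8 were not called lower, which 4 of them could not be, having a knockout level below 20%. Their differences from the knockout library were -17.2 to 7.54 percentage points in replicate 1 and -15.0 to 2.13 in replicate 2. Over the genome, 12.5% of enriched and tested windows were called lower, and 18.0% of those at 40 to 65% in the knockout library. The 8 windows had knockout levels of 4.44 to 32.7%, and those of the control region 42.4 and 59.5%, so no other enriched window of the domain had a knockout level like theirs. The window at chr7:149708501-149709000, at 13.7 and 4.96 times, missed the cutoff narrowly in replicate 2. It had 42.9% of 63 knockout observations methylated, and 27.9% of 68 and 29.5% of 44 in the ChIP replicates. It was not called lower (adjusted exact p = 0.213 and 0.409). The motif of the control region was present in 2 of the 10 enriched windows. A shorter and looser core CTCF motif reads CC, any base, C, any 2 bases, G, any 2 bases and GGC. This core motif was present in 8 of the 10, against 35 of 404 windows of the domain. On chromosome 7 it was present in 4.64% of windows. Enriched windows without it were chr7:149708001-149708500 and chr7:149718501-149719000. Most enriched windows thus held a match to this loose core motif, and whether CTCF binds at these matches was not tested.

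The most covered window of the domain was at chr7:149724001-149724500 in an intron of Mrpl23, which encodes a protein of the mitochondrial ribosome, at 64.6 and 47.6 times the library mean. It was unmethylated in all libraries, with 2.50% of 160, 6.16% of 211 and 4.44% of 45 observations. The window at chr7:149708001-149708500, between genes, followed at 36.0 and 21.3 times. Its methylation was 11.9% of 67, 19.7% of 71 and 29.2% of 72 observations. An Lsp1 exon window at chr7:149673001-149673500 reached 17.5 and 17.4 times, with 6.15% of 65, 17.2% of 116 and 20.8% of 207. The last of the 5 named for coverage, chr7:149718501-149719000 at the first exon of Mrpl23, had 18.8 and 15.3 times, with 2.45% of 245, 6.72% of 357 and 11.7% of 545. All of these had lower knockout methylation than the control region.

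Between the control region and Igf2 lay 1 enriched window, chr7:149796501-149797000, 32703 bp from the H19 start and in the extension. It had 23.2 and 15.8 times the library mean, more than any window of the control region. Methylation there was intermediate in each library, at 29.1% of 158 and 26.9% of 193 ChIP observations and 26.0% of 73 in the knockout library. The ChIP replicates differed from the knockout library by 3.09 and 0.916 percentage points (intervals -9.77 to 14.6 and -11.6 to 11.9, adjusted exact p = 0.884 and 1.00). No difference was detected, but these intervals are wide and leave room for one in either direction. The tested windows of the control region were called lower, although a test of that contrast was not made. The neighbouring window, chr7:149797001-149797500, had 4.61% of 152 knockout observations methylated.

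**Figure D3:**
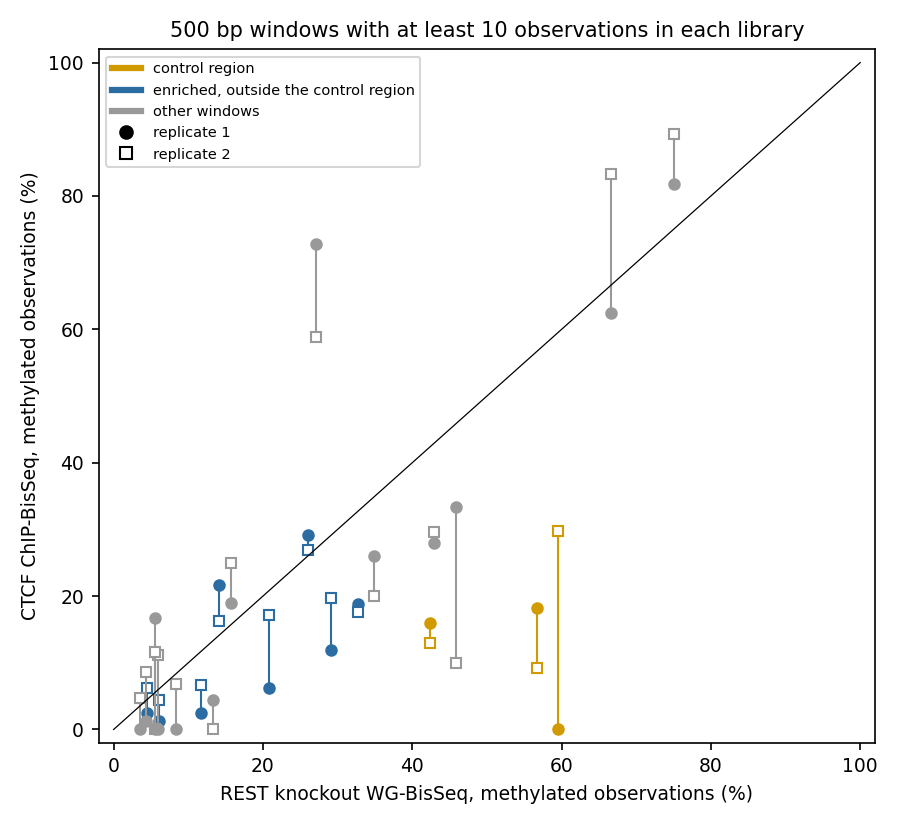
Methylation in percent of the 25 tested windows, with the REST knockout library on the horizontal axis and each ChIP-BisSeq replicate on the vertical axis (filled circle, replicate 1, open square, replicate 2, joined by a line). The 3 control region windows lie at 42.4 to 59.5% on the horizontal axis and below the line of equality, and the 8 enriched windows elsewhere lie at 4.44 to 32.7%, from 17.2 percentage points below it to 7.54 above.

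At the H19 promoter, from 250 bp before to 50 bp after the annotated start, the knockout library was 37.1% methylated (89 of 240 observations over 15 CpGs, interval 31.0 to 43.5). It is shown because the level was similar over its whole length, with CpGs in capitals.
H19 promoter, chr7:149763999-149764298, minus strand: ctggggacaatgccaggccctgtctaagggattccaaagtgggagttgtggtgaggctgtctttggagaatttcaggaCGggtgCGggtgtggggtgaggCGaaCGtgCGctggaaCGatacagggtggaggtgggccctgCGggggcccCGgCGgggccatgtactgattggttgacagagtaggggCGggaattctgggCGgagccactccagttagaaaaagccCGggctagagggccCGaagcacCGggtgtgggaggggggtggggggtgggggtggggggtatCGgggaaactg
Of its CpGs, 12 had at least 10 knockout observations, with values from 22.2 to 50.0%. The interval of the promoter lay below that of the control region, but over 500 bp on each side of the start the level was 48.0% (interval 44.5 to 51.5), which overlaps it. The ChIP replicates had only 4 of 12 and 0 of 4 observations methylated, too few for a comparison. The window at chr7:149764001-149764500, which holds most of the promoter, had 33.3% of 12 and 10.0% of 10 ChIP observations and 45.8% of 347 in the knockout library, and was not called (adjusted exact p = 0.729 and 0.0903).

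The H19 gene itself was 64.9% methylated in the knockout library, with 76.9% of 13 and 86.1% of 36 ChIP observations. Its microRNA, Mir675, had 73.0% of 74 knockout observations methylated in the window at the annotated microRNA start, which lies inside H19. Between the H19 promoter and the control region the knockout level was 63.9%. Methylation therefore dipped at the promoter and in the control region, with a higher level between and on both sides of them. Beyond the control region, as far as Igf2, it was 70.0%, and in the interval below H19 it was 64.8%.

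Igf2 was mostly unmethylated around its promoters. Over all its annotated starts and their 90 CpGs, the knockout library had 297 of 3125 observations methylated (9.50%, interval 8.50 to 10.6). The ChIP replicates had 7.32% of 123 and 20.0% of 130. A stretch just before the start of transcript Igf2-002 is shown, since it had the lowest level among the starts, with CpGs in capitals.
Igf2 promoter stretch, chr7:149845395-149845597, minus strand: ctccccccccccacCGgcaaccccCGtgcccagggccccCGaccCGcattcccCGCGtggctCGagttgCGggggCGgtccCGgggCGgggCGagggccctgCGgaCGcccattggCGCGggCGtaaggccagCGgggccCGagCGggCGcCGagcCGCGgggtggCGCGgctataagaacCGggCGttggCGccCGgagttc
At this start the knockout library had 2.22% methylated of 315 observations (interval 0.898 to 4.52), replicate 1 had 1.30% of 77 and replicate 2 had 16.2% of 74 (interval 8.67 to 26.6). The same window is the promoter of Igf2as, an antisense RNA, so its values belong to both genes.

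The other starts differed among themselves in the knockout library. Igf2-201 had 5.82% of 1926 observations methylated, Igf2-006 had 15.6% of 797 and Igf2-003 had 20.1% of 532. The most upstream start, Igf2-004, was mostly methylated, at 84.2% of 19 observations (interval 60.4 to 96.6). The starts nearest to the 3' end, of Igf2-001, Igf2-202 and Igf2-203, share 7 CpGs with 64.1% of 39 (interval 47.2 to 78.8). Igf2-005 has no CpG in its window. The intervals of Igf2-002, Igf2-201 and Igf2-006, in the order of their levels, did not overlap, whereas those of Igf2-006 and Igf2-003 did and their windows share CpGs.

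**Figure D4:**
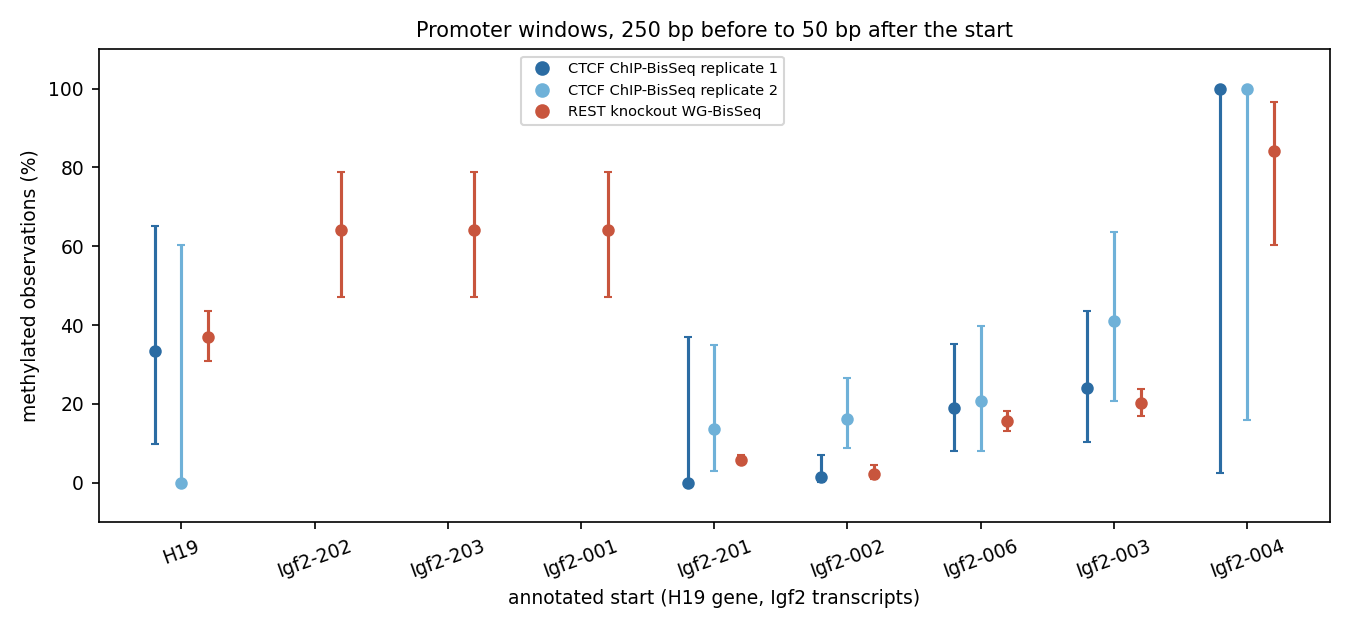
Methylated observations in percent at the promoter windows of H19 and of each Igf2 transcript with a CpG, by library, with exact 95% binomial intervals that cover counting error only. The knockout library lies at 37.1% at H19 and between 2.22 and 20.1% at the 4 central Igf2 starts, and the 3 starts Igf2-202, Igf2-203 and Igf2-001 share their CpGs.

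The low levels of Igf2 covered neighbouring windows, with each of the 5 from chr7:149844501 to chr7:149847000 below 10% in the knockout library. Of 278 windows of the domain with at least 20 knockout observations and 3 CpGs, 10 were below 10% (background 2.62%), 8 of them in the extension. The lowest were chr7:149846501-149847000 at 3.53% and chr7:149845001-149845500 at 4.39%, followed by the Mrpl23 intron window at 4.44%, the window beside the CTCF-enriched one at 4.61% and chr7:149849501-149850000 in an Igf2 intron at 5.56%. Of all windows, 57 of 278 lay between 40 and 65%, against a background of 24.9%, and 4 of the 5 windows of the control region were among them. An intermediate level in a window is therefore no mark of the control region by itself.

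The 3' end of Igf2 was mostly methylated, but not evenly. Its last exon, chr7:149836673-149839957, which by common knowledge holds the differentially methylated region DMR2, had 68.3% of 556 knockout observations methylated (interval 64.3 to 72.2), and 100% of 9 and 90.5% of 21 ChIP observations. The window at chr7:149839501-149840000, which lies mostly in this exon, had an intermediate level of 47.4% of 154 knockout observations (interval 39.3 to 55.6). Upstream of Igf2 the level was 83.3%. No interval for the other differentially methylated regions of Igf2 was given in the sources used here, and none was assigned. Mir483, a microRNA within Igf2, had 34.0% of 47 observations methylated in the window at its annotated start, which lies inside Igf2.

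None of the 9 tested windows of the extension was called in either direction, but 8 of them had a knockout level below 20% and could not have been called lower. At an unadjusted exact p under 0.05 in both replicates with the same sign, 0 windows of the extension differed, and in the interval around H19 4 of 16 were lower and 1 was higher. Windows that differed between the ChIP replicates were 4 of 25 in the domain (background 15.2%). They were the site 2 window, chr7:149719001-149719500 in Mrpl23, and chr7:149845001-149845500 and chr7:149849501-149850000 in Igf2. In both Igf2 windows replicate 2 was higher, at 8.55% of 234 and 11.7% of 103 against 1.26% of 238 and 0 of 60, the last of which allows up to 5.00%. The knockout library was between the replicates at both, at 4.39 and 5.56%, so that the spread between replicates was as large as any difference from it.

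The other genes of the domain lie on the far side of H19. Their promoter windows in the knockout library had 28.8% of 111 observations methylated for Mrpl23, 79.5% of 73 for Gm14492, 78.9% of 19 for Nctc1 and 3 of 3 for Lsp1, which encodes an actin-binding protein of leukocytes. The promoter window of Mrpl23 held only 2 CpGs. The 500 bp window with the Mrpl23 start had 11.7% of 545 knockout observations methylated, and the next window had 6.02% of 1013. Tnnt3, a troponin of fast muscle, has no CpG in its promoter window. A single window of the domain was called higher in the ChIP replicates (1 of 25, background 3.46%), chr7:149667501-149668000 in an intron of Lsp1. It had 72.7% of 11, 58.8% of 17 and 27.0% of 159 observations methylated (adjusted exact p = 0.016 and 0.047). Its relative coverage was 0.807 and 0.697, so it was not enriched, and its ChIP counts were among the smallest tested.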

How the data were processed

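The authors deposited, for each library, whole-number counts per CpG, the observations and the methylated observations, without normalization. Per the labels and the submitters' processing notes, reads were aligned to mm9, and Bowtie 0.10.0.1 is named. Duplicate removal and the joining of strands are not given in the sources used here. Each position listed on the autosomes and sex chromosomes is a plus-strand C followed by G in NCBIM37 (mm9), whose sequence and GENCODE annotation were used. Unlisted CpGs were given a coverage of 0.

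Counts were summed per CpG, promoter window, region and 500 bp window (pandas 2.3.3, NumPy 2.4.6 and numba 0.67.0 under Python 3.11.15), with intervals from SciPy 1.17.1. Relative coverage is the coverage per CpG divided by the library mean (0.620, 1.11 and 7.88), which leaves out CpGs with more than 100 knockout observations. No input library was used. Libraries were compared by two-sided Fisher exact tests with Benjamini-Hochberg adjustment over the genome, and levels over the control region, promoters and genes were given as values with intervals. The limit for a count of 0 is 3 observations of the total. The Fisher test was tested on simulated data: it found changed windows reliably only where every library was deep, so a shallow window that was not called is not thereby unchanged.

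Alternatives were other window lengths (200 and 1000 bp), minimum observations (5 and 20), difference (30 percentage points), fold (10 times), wider promoters, and leaving out each replicate. The 1-mismatch match and the backgrounds over enriched windows were added after seeing the data. The search for the shorter core motif was not part of the plan.

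Named were H19, Igf2 and the other annotated genes, all control region windows, and outside it the 5 windows with the highest coverage in the lower replicate and the 5 with the lowest knockout methylation. Windows and CpGs named for a call, for a difference between replicates or beside a named window were added to these after their values were seen. The members and lists were chosen with earlier results of these data known.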

Additional observations from a re-analysis of the deposited data

How the results depend on the processing

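None of the 15 alternatives for a difference reversed its sign, and 2 were weaker, both of them windows that missed a minimum of 30 percentage points. For the windows called lower a reversal was not possible, since a call already needed the same sign from both replicates. The main counts and levels have no sign to reverse. Of their 32 alternatives, 22 stayed within the limits set for them and 10 moved beyond these. Control region methylation in ChIP-BisSeq was 21.4% with a minimum of 5 observations per CpG and 7.0% with a minimum of 20, and ranged from 0 to 16.3% when either replicate was left out. The value of 0 was that without replicate 2, which left 7 CpGs. The knockout level was 47.0% with a minimum of 20. The H19 promoter was at 48.0% over 500 bp on each side of the start, where its interval overlaps that of the control region, and the Igf2 promoters were at 11.6% as a mean over CpGs. With a difference of at least 30 percentage points, 1 window was called lower, that of sites 3 and 4, and with either replicate left out 3 to 4 were. Enriched windows numbered 6 at 10 times the library mean (0 in the control region), 4 when divided by knockout coverage (1 in the control region) and 11 to 14 with either replicate left out. With at least 20 observations 0 of 16 single CpGs were called lower by the Fisher test (0 also at an unadjusted p under 0.05 in both replicates), but 0 CpGs of the control region reach that depth in every library, so the called CpGs were not among them, and with either replicate left out 3 were. Counts of windows that differ between replicates stayed within 1.5 times. No paired analysis was possible because only the ChIP-BisSeq group has replicate numbers. Depth limits the ChIP values outside enriched windows, and 25 of 404 windows could be tested.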
